A study of Mus musculus with 14 samples.

Results

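Knockdown cells that also received a CTNS plasmid (rescue) were compared with cells that carried the Ctns knockdown alone, in mouse embryonic fibroblasts (MEFs). The comparison was chosen by the labels and took 4 of the 14 libraries of the series, 2 on each side. All libraries came from MEFs of wild type genotype. The knockdown group, CTNS-KD, was transfected with a short hairpin RNA named sh-CTNS. The rescue group, CTNS-KD-rescue, received the same hairpin together with the CTNS plasmid. Polyadenylated RNA was sequenced, and the deposited tables give whole-number counts for 1399 transcripts, of which 1385 were matched to a gene symbol. The untreated group NT2 and the Cysteamine group, 2 libraries each, are given beside the results as levels only, and they also entered the fit to estimate the spread. The other 6 libraries, of the groups NT, Cys and AA, took no part in the main fit. They were left out because earlier results of these data gave a larger spread within their groups. The sources used here give no dose, time or vector, and do not say that replicate libraries came from different cultures. Each p-value therefore measures only the spread between libraries, and that spread may be technical. No group with a control hairpin or an empty plasmid is among those compared, so the presence of a plasmid and the CTNS it carries cannot be told apart.

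Ctns encodes cystinosin, the lysosomal membrane transporter that carries cystine, the oxidised dimer of cysteine, from the lysosome to the cytosol. Cystine that leaves the lysosome is reduced to cysteine, which feeds protein and glutathione synthesis, and its loss in people causes the storage disease cystinosis. Fibroblasts secrete and assemble much of the connective tissue matrix: collagens, fibronectin and the matricellular proteins that bind them. Secreted proteins fold in the endoplasmic reticulum with the help of chaperones such as Hspa5, whereas Hsp90 and Hsc70 fold proteins of the cytosol. Ctns itself is not among the 1399 transcripts, so neither the knockdown nor the plasmid was checked at its own transcript and both stand as labelled.

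The transcripts that rose in the rescue included the ubiquitin ligase gene Rnf213 and genes of the fibroblast matrix, among them Col1a1, Col1a2, Col6a1, Col6a2, Thbs1 and Fn1. Those that fell included chaperone genes (Hspa8, Hsp90aa1, Hsp90ab1 and Hspa5) and large structural or nuclear genes such as Ahnak, Flnc, Polr2a and Nup155. With edgeR's quasi-likelihood test and an adjusted p threshold of 0.05, 58 of 1399 transcripts were called, which is 4.15%. Of these, 41 were higher in the rescue (2.93%) and 17 were lower (1.22%). Among the 41, 21 belong to the NT-high class described below. In all 58 the 2 rescue libraries lay outside the range of the 2 knockdown libraries, as they did for 332 transcripts above and 334 below among all 1399. Over all transcripts the log2 fold change was above 0 for 698, with a median of -0.0011. The split of calls depended on the scaling: 70.7% were higher under the trimmed mean of M values (TMM) used here, 83.1% under relative log expression scaling and 35.6% with library totals alone, under which the median of all log2 fold changes moved to -0.15. The number called was 9 when all 14 libraries entered the fit and 10 when the 4 compared libraries stood alone. Leaving out a library of the fit gave 21 calls without CTNS-KD replicate 2, 30 without CTNS-KD replicate 1, 32 without CTNS-KD-rescue replicate 1, 38 without 1 or the other Cysteamine library, and 42 to 45 otherwise. Each of the 58 kept its sign in every alternative in which it was tested. Rnf213, Col1a2, Acta2 and Col6a1 were called in all 21 alternatives, and for the other calls the number of alternatives that made them is given with their values. Where the DESeq2 alternative gave a transcript no adjusted p after its own filter, it counts as an alternative that did not call it.

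**Figure D1:**
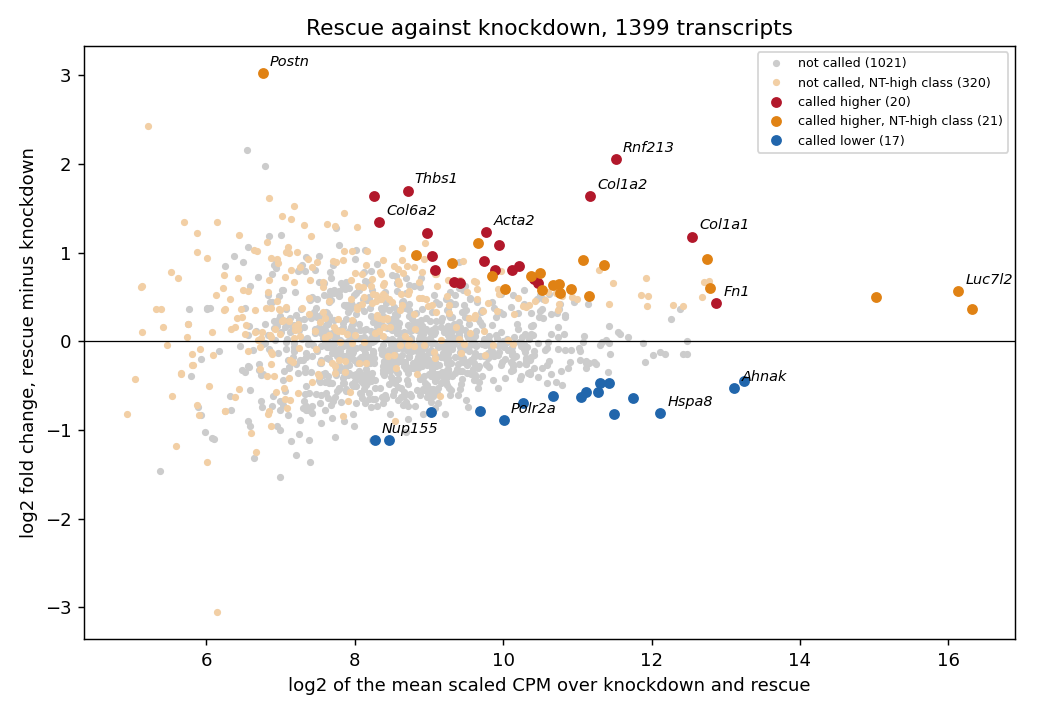
Log2 fold change of rescue over knockdown (y axis) against the log2 mean scaled level of the 4 libraries (x axis) for 1399 transcripts; red and orange points were called higher (20 outside and 21 inside the NT-high class described below) and blue points were called lower (17). Rnf213, Col1a2 and Col1a1 lie above the bulk of transcripts at similar levels, and Hspa8 and Polr2a lie below it.

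Levels are given below as scaled CPM, the count of a transcript relative to the TMM-scaled total of the 1399 listed ones, in the usual CPM unit. They are levels within this set of transcripts and not of the whole transcriptome, and since every listed count is 1 or more, no fall to 0 can be seen. Total counts were 98481 and 79630 in the knockdown libraries and 87972 and 64530 in the rescue libraries, and the median count per transcript was 35 and 29 against 28 and 22. Replicates differed by more than counting noise in all 4 groups of the fit, so every library was counted. The chi-square per degree of freedom was 1.67 in the knockdown and 1.95 in the rescue. It was smaller in the 2 groups that entered only for the spread, at 1.56 in NT2 and 1.55 in Cysteamine.

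The composition of the libraries also moved with the comparison. Luc7l2, Pigl and Pglyrp3, the 3 transcripts with the most counts, together held 15.9% ± 0.099 (SD, n = 2) of the counts in the knockdown and 19.8% ± 1.73 (SD, n = 2) in the rescue, against 3.39% ± 0.14 (SD, n = 2) in NT2 and 7.85% ± 0.182 (SD, n = 2) in Cysteamine. All 3 were called higher in the rescue, by 0.56 ± 0.074 (SE) on the log2 scale for Luc7l2, 0.50 ± 0.10 for Pglyrp3 and 0.37 ± 0.089 for Pigl. Of the 19 alternatives that held them, 17 called Luc7l2, 15 Pglyrp3 and 7 Pigl, and none of the 3 was called by edgeR with all 14 libraries (adjusted p of 0.713, 0.773 and 0.835). A class of 341 transcripts was defined by being high in NT relative to NT2, with a ratio to these 3 above 2 times the median ratio; neither group is part of the comparison. This NT-high class held 32.3% ± 0.495 (SD, n = 2) of the counts in the knockdown and 40.6% ± 1.71 (SD, n = 2) in the rescue. Its log2 fold change was above 0 for 261 of 341 transcripts (76.5%, beside 49.9% of all transcripts) with a median of 0.39. The class held 21 of the 41 higher calls, which is 6.16% of its members, beside 2.93% of all transcripts. None of the 17 lower calls by edgeR was in the class, where 4 transcripts were lower at an unadjusted p under 0.05 and where limma called 2 lower and DESeq2 0. The other 1058 transcripts held 20 higher and 17 lower calls, with 437 above 0 and a median of -0.072. With the class left out and the rest scaled again, 36 of these 37 calls were kept. The part of the class in the results was otherwise not tested, and members of it are named as such below.

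**Figure D2:**
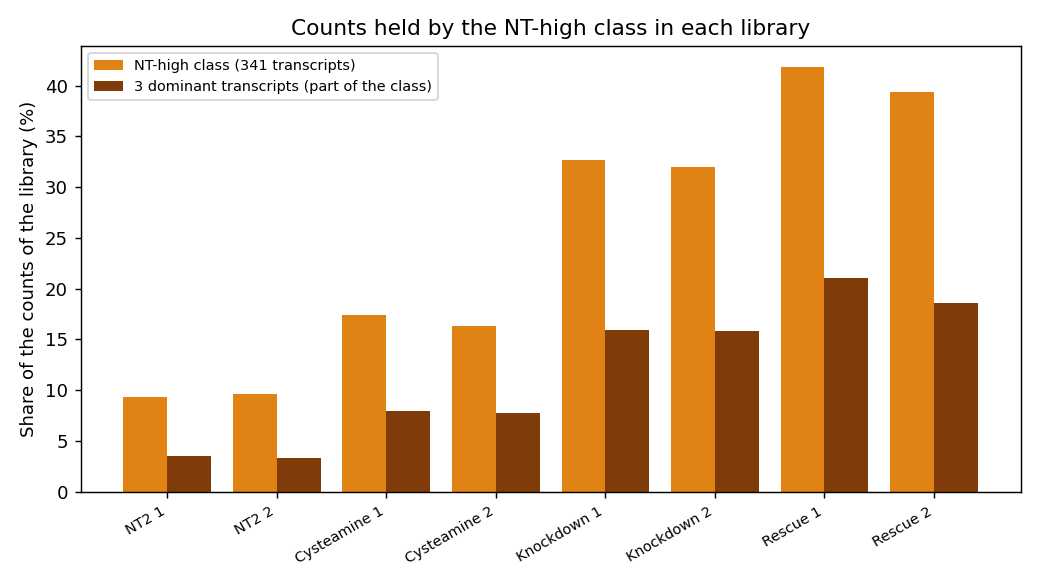
Share of each library's counts, in percent (y axis), held by the 341 transcripts of the NT-high class (light bars) and by its 3 dominant transcripts (dark bars) in the 8 libraries of the fit (x axis). Both shares are larger in the 2 rescue libraries than in the 2 knockdown libraries and smallest in NT2, whose low counts are part of how the class was defined.

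The genomic stretch before the transcription start is shown for Rnf213, the transcript with the smallest p, for Col1a2, a called chain of type I collagen, and for Hspa5, the called chaperone of the endoplasmic reticulum. The windows are the 250 bases before the start, from RefSeq on GRCm38.p6: chr11:119389849-119390098 for Rnf213, chr6:4505368-4505617 for Col1a2 and chr2:34771840-34772089 for Hspa5, all on the plus strand. Capitals mark the motifs searched on both strands.
Rnf213: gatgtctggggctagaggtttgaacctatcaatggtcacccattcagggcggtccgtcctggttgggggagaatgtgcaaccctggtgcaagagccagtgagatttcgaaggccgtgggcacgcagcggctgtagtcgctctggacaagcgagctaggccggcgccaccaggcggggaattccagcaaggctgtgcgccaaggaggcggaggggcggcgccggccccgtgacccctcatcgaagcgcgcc
Col1a2: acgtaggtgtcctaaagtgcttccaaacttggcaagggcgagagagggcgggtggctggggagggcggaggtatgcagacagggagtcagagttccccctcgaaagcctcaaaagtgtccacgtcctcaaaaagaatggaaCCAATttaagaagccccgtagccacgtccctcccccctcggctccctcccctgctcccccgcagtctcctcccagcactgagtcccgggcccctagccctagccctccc
Hspa5: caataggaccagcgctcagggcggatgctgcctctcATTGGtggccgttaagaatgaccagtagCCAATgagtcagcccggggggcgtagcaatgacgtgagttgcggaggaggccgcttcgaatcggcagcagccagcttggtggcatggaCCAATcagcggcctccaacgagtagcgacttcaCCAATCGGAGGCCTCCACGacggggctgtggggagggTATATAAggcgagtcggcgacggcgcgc
The motifs were the CCAAT box (CCAAT), the TATA box (TATANAA) and the endoplasmic reticulum stress element, ERSE, a 19-letter motif that begins with a CCAAT box. Among 32851 windows of the same length, 33.8% held a CCAAT box, 10.4% a TATA box and 0.113% (37 windows) an ERSE. The Hspa5 window held an ERSE at 65 to 47 bases before the start, a TATA box at 28 to 22 bases, and 4 CCAAT boxes, 1 of them on the minus strand and 1 inside the ERSE. In the Col1a2 window a single CCAAT box was found, at 109 to 105 bases before the start. In the Rnf213 window none of the 3 motifs was found. Of the 57 called transcripts with a symbol, 41 had a promoter entry.

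Rnf213 encodes a very large ubiquitin ligase of the vasculature and of interferon-treated cells. Its scaled CPM was 1144 and 1126 in the knockdown libraries and 4546 and 4921 in the rescue libraries. NT2 stood at 3075 and 2886, and Cysteamine at 974 and 1068. The rescue libraries were the highest of the 8 and the knockdown libraries lay near those of Cysteamine. The difference was 2.06 ± 0.12 (SE) on the log2 scale, 4.16-fold, with an adjusted p of 3.83e-07 by edgeR's quasi-likelihood test. Relative to NT2 the knockdown stood at -1.39 and the rescue at 0.66 on the log2 scale. The interferon and inflammation list held 2 other listed genes, Ptgs1 at 0.74 (adjusted p of 0.114 by edgeR) and H2-D1, a member of the NT-high class, at -0.37 (adjusted p of 0.627 by edgeR). Neither was called, so Rnf213 was the 1 call among 3 listed members (33.3%, beside 2.93% of all transcripts). Samhd1, a call given below, is not on this list.

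Type I collagen, the fibril of skin, bone and tendon, is built from the chains encoded by Col1a1 and Col1a2, and type III collagen from Col3a1. Col1a1 stood at 3724 and 3625 scaled CPM in the knockdown and at 8347 and 8326 in the rescue, with NT2 at 11552 and 10244. The rise was 1.18 ± 0.095 (SE) on the log2 scale, with an adjusted p of 8.55e-06 by edgeR. Col1a2 stood at 1054 and 1212 in the knockdown and at 4045 and 2933 in the rescue. It rose by 1.63 ± 0.16 (SE; adjusted p of 8.16e-05 by edgeR). Col3a1 was at 653 and 532 against 1104 and 1141, a rise of 0.91 ± 0.17 (SE; adjusted p of 0.0105 by edgeR). For these 3 chains the knockdown and rescue libraries did not overlap, and every rescue library stood below both NT2 libraries. Both rescue libraries lay above both knockdown libraries for 332 of all 1399 transcripts. Col1a1 was called in 20 of 21 alternatives, all but the fit of all 14 libraries (adjusted p of 0.228 by edgeR), and Col3a1 in 18, not with all 14 libraries (0.237), with the 4 compared libraries alone (0.0565) or without CTNS-KD replicate 2. In the list of fibrillar collagens and collagen-modifying enzymes, 3 of 10 listed members rose (30%, beside 2.93% of all transcripts), 8 were above 0 (beside 49.9% of all transcripts), and the median log2 fold change was 0.56. Pcolce, which enhances the cleavage of procollagen, was at 1.03 with an adjusted p of 0.0911 by edgeR. It was not called in the main result, and 2 alternatives called it.

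Type VI collagen forms beaded microfilaments around cells from the chains Col6a1, Col6a2 and Col6a3. Col6a1 stood at 592 and 668 scaled CPM in the knockdown and at 1297 and 1385 in the rescue, against 1427 and 1635 in NT2. The rise was 1.09 ± 0.16 (SE) on the log2 scale (adjusted p of 0.00163 by edgeR). Col6a2 stood at 201 and 161 against 488 and 440, a rise of 1.35 ± 0.29 (SE; adjusted p of 0.0185 by edgeR). Col6a3, at 361 and 606 against 950 and 798, had a log2 fold change of 0.89 and an adjusted p of 0.0583, so it was not called. All 3 listed chains were above 0, with a median of 1.09. Col6a2 was called in 16 of 21 alternatives, not with the 4 compared libraries alone (adjusted p of 0.0614 by edgeR) or without CTNS-KD replicate 1, CTNS-KD replicate 2 or CTNS-KD-rescue replicate 1; Col6a3 was called in 7.

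Thrombospondin 1 (Thbs1), fibronectin (Fn1), osteonectin (Sparc) and periostin (Postn) are secreted proteins that bind matrix and cell surface receptors. Thbs1 stood at 181 and 223 scaled CPM in the knockdown and at 770 and 505 in the rescue, with NT2 at 1167 and 1134. It rose by 1.70 ± 0.25 (SE) on the log2 scale (adjusted p of 0.00229 by edgeR), and with the 4 compared libraries alone its adjusted p by edgeR was 0.0533. Fn1 was at 6274 and 6470 against 8552 and 8636, a smaller rise of 0.43 ± 0.079 (SE; adjusted p of 0.0089 by edgeR), and NT2 was at 21315 and 20482. Sparc rose by 0.70 ± 0.15 (SE), from 1034 and 1064 to 1900 and 1483. Postn, a member of the NT-high class, rested on 4 counts in the 2 knockdown libraries together; its ratio of rescue to knockdown was 8.42 (95% interval 2.92 to 33.2, counting error only), and its adjusted p was 0.0138. In the matricellular list 4 of 11 listed members rose (36.4%, beside 2.93% of all transcripts), 9 were above 0 (beside 49.9%), and the median was 0.40. Thbs1 was called in 20 of 21 alternatives, Fn1 in 17, Sparc in 16 and Postn in 14 of 19. Fn1, Sparc and Postn were not called with the 4 compared libraries alone (adjusted p of 0.123, 0.075 and 0.075 by edgeR) or without 1 or the other knockdown library, Fn1 and Sparc not with all 14 libraries (0.623 and 0.457), Sparc not without CTNS-KD-rescue replicate 1, and Postn not without CTNS-KD-rescue replicate 2.

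Col4a2, a chain of the basement membrane network, stood at 1104 and 1113 scaled CPM in the knockdown and at 1900 and 1581 in the rescue, a rise of 0.66 ± 0.14 (SE; adjusted p of 0.0169 by edgeR). It was the 1 call among 9 listed basement membrane genes (11.1%, beside 2.93% of all transcripts), 8 of which were above 0 (beside 49.9%), with a median of 0.48. Col4a1 (0.48), Hspg2, which encodes perlecan (0.42), and Lama5, a laminin chain (0.52), had adjusted p values of 0.0732, 0.0609 and 0.0711 by edgeR and were not called in the main result. Of the alternatives, 6 called Col4a1, 7 Hspg2 and 6 Lama5. Timp3, an inhibitor of matrix metalloproteinases, stood at 853 and 854 against 1695 and 1352 and rose by 0.85 ± 0.15 (SE; adjusted p of 0.00683 by edgeR). It was the 1 call among 5 listed matrix proteases and inhibitors (20%, beside 2.93% of all transcripts). Of these, 3 were above 0 and 2 below, from -0.58 to 0.85, with a median of 0.37. Col4a2 was called in 15 of 21 alternatives and Timp3 in 18. Neither was called with all 14 libraries (adjusted p of 0.324 and 0.232 by edgeR), with the 4 compared libraries alone (0.075 and 0.0533) or without CTNS-KD-rescue replicate 1, and Col4a2 was not called without 1 or the other knockdown library or by DESeq2. The 5 matrix lists together held 38 listed transcripts, a union formed after their values were seen. Of these 11 rose (28.9%, beside 2.93% of all transcripts), and 31 were above 0, with a median of 0.47. None fell by edgeR, DESeq2 or limma, and at an unadjusted p under 0.05 by edgeR 20 were higher and 0 lower. The number that rose was 5 with all 14 libraries, 3 with the 4 compared libraries alone, 6 without 1 or the other knockdown library and 7 without CTNS-KD-rescue replicate 1. It was 8 with DESeq2, 14 with limma and without the NT-high class, and 15 with relative log expression scaling and without the 3 dominant transcripts.

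**Figure D3:**
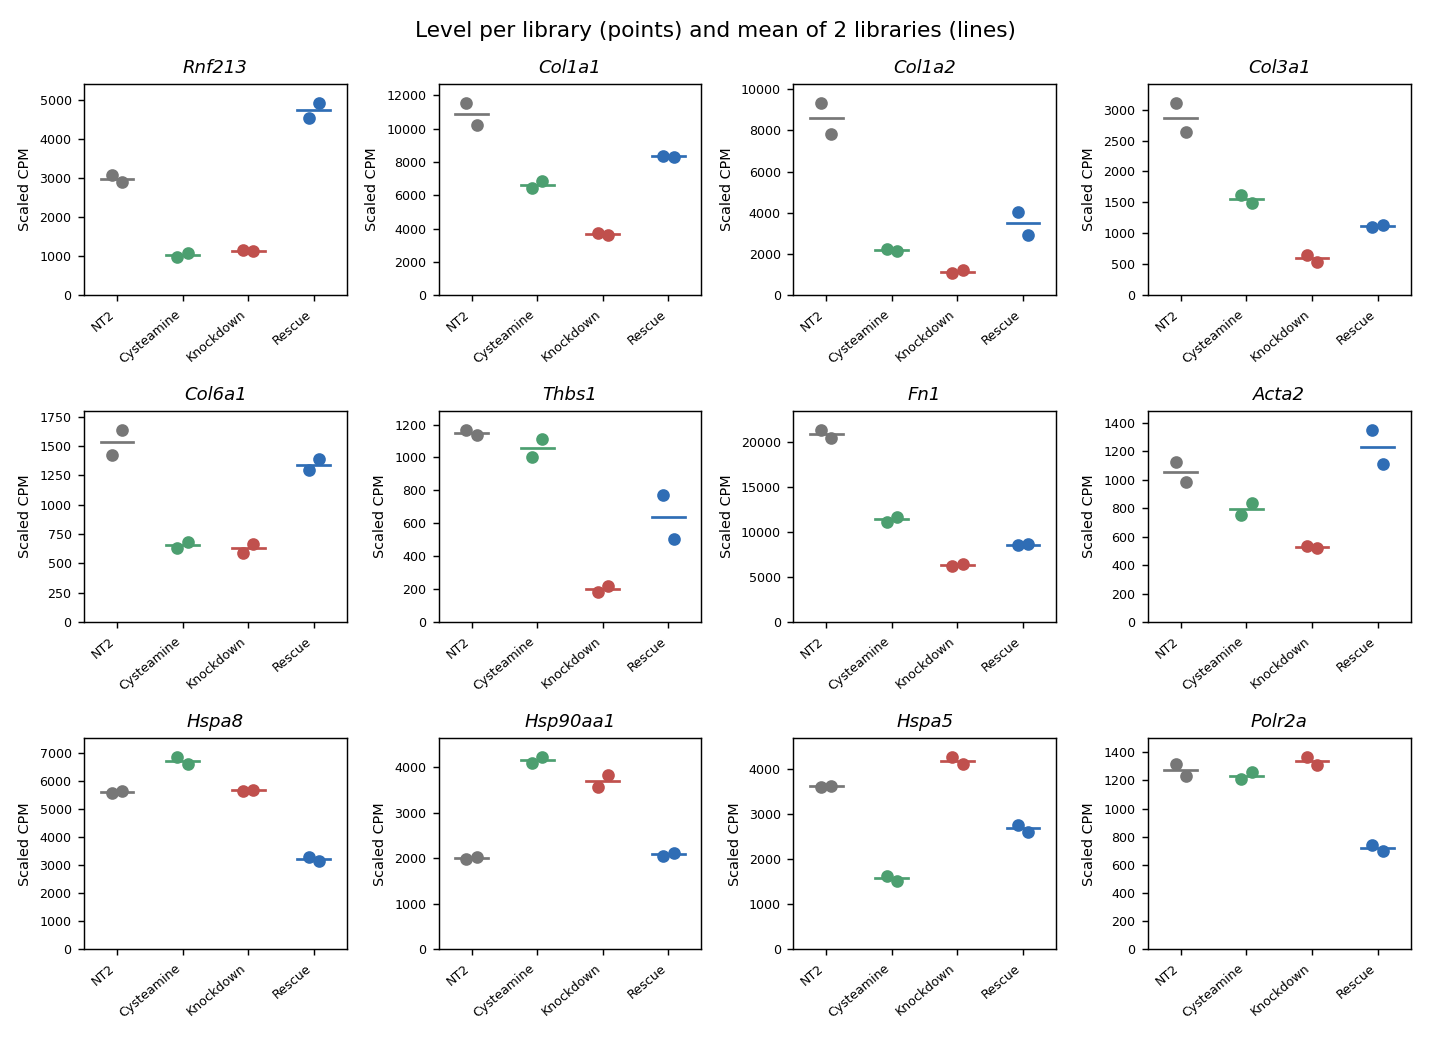
Scaled CPM (y axes, each starting at 0) of 12 transcripts in the 8 libraries of NT2, Cysteamine, knockdown and rescue (x axis); points are libraries and lines are means of 2. In the first 8 panels both rescue points lie above both knockdown points, and in the last 4 (Hspa8, Hsp90aa1, Hspa5 and Polr2a) both lie below them.

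Further genes among the 12 largest rises, or called in a list, had various roles. Ccdc80, which encodes a secreted matrix protein, stood at 201 and 86.6 scaled CPM in the knockdown and at 462 and 473 in the rescue, a rise of 1.64 ± 0.35 (SE; adjusted p of 0.0169 by edgeR). Csf1, the macrophage growth factor gene, stood at 392 and 198 against 732 and 684 and rose by 1.22 ± 0.25 (SE; adjusted p of 0.0138 by edgeR). Lrp1, an endocytic receptor for matrix proteins and proteases, stood at 693 in both knockdown libraries against 1310 and 1092 and rose by 0.80 ± 0.15 (SE; adjusted p of 0.0105 by edgeR). The values of the 2 knockdown libraries lay apart for Ccdc80 and Csf1 and close together for Lrp1. Over the alternatives the log2 fold change ran from 1.23 to 2.42 for Ccdc80 and from 0.87 to 1.84 for Csf1; each was called in 17 of 21, not with the 4 compared libraries alone (adjusted p of 0.075 and 0.104 by edgeR) or without CTNS-KD replicate 2 or CTNS-KD-rescue replicate 1. Lrp1 was called in 16, not without these libraries, CTNS-KD replicate 1, with all 14 (0.199) or with the 4 alone (0.0614). Ptcd1, a mitochondrial RNA-binding protein gene, rose by 1.11 ± 0.21 (SE), and Samhd1, a nucleotide hydrolase gene, by 0.97 ± 0.23 (SE); both belong to the NT-high class, and in NT2 they stood at 108 and 267 on average. Ptcd1 was called in 16 of 20 alternatives, not without CTNS-KD replicate 2, and Samhd1 in 9, and leaving out any library of the fit but CTNS-KD-rescue replicate 2 ended the call of Samhd1. Neither was called with all 14 libraries (adjusted p of 0.228 and 0.0677 by edgeR) or with the 4 compared libraries alone (0.0564 and 0.109).

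Acta2, smooth muscle actin and a mark of contractile fibroblasts, stood at 532 and 520 scaled CPM in the knockdown and at 1348 and 1108 in the rescue, around the 1127 and 983 of NT2. It rose by 1.23 ± 0.17 (SE) on the log2 scale (adjusted p of 0.00117 by edgeR). Ahnak, a giant scaffold protein gene, stood at 10179 and 10751 against 7345 and 7186 and fell by 0.53 ± 0.084 (SE; adjusted p of 0.00361 by edgeR). Flnc, a filamin that crosslinks actin, stood at 2449 and 2858 against 1836 and 1727 and fell by 0.57 ± 0.13 (SE; adjusted p of 0.0267 by edgeR). Of 28 listed contractile and focal adhesion genes, 1 rose and 3 fell (3.57% and 10.7%, beside 2.93% and 1.22% of all transcripts), 17 were above 0 and the median was 0.10; at an unadjusted p under 0.05, 5 were higher and 4 lower. Tln1, which encodes the integrin linker talin, was at 0.45 with an adjusted p of 0.0604 by edgeR and was called in 7 alternatives. Tubb5, a tubulin gene, stood at 2138 and 1831 against 1361 and 1222 and fell by 0.62 ± 0.14 (SE; adjusted p of 0.0247 by edgeR). It was the 1 call among 7 listed tubulin and motor genes (14.3%, beside 1.22% of all transcripts). Below 0 were 6 of the 7, beside 701 of all 1399 transcripts. Sptan1, the spectrin of non-erythroid cells, fell by 0.57 (adjusted p of 0.0383 by edgeR). Of 21 alternatives 17 called Ahnak, 15 Flnc, 13 Tubb5 and 10 Sptan1. None of the 4 was called with all 14 libraries (adjusted p of 0.537, 0.522, 0.411 and 0.426 by edgeR), with the 4 compared libraries alone (0.0614, 0.0939, 0.075 and 0.123) or by DESeq2. Ahnak, Flnc and Sptan1 were not called without CTNS-KD replicate 2, Flnc and Tubb5 not without 1 or the other rescue library, Tubb5 and Sptan1 not without CTNS-KD replicate 1 or 1 or the other Cysteamine library, and Sptan1 not without CTNS-KD-rescue replicate 2 or 1 or the other NT2 library.

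The fibroblast markers as a whole moved in the same direction as the collagens, which are among them. Of 24 fibroblast markers 15 were listed, 7 rose (46.7%, beside 2.93% of all transcripts), and 14 were above 0 (beside 49.9%), with a median of 0.66. Their summed level was 18360 and 18330 scaled CPM in the knockdown, 31200 and 29610 in the rescue, 65030 and 59420 in NT2, and 38080 and 39010 in Cysteamine. In such bulk RNA a smaller share of expressing cells and less RNA per cell cannot be told apart. Of 105 markers of other cell types 7 were listed (Cdh1, Ctrb1, Ttn, Srpk3, Cubn, Cd4 and Flt1), and none was called by edgeR or limma. All of them but Cd4 belong to the NT-high class. Of these markers 1, Ttn, had an unadjusted p under 0.05 by edgeR. Their summed level was 2951 and 2709 in the knockdown, 3660 and 3422 in the rescue, 1733 and 1656 in NT2, and 2058 and 1787 in Cysteamine. Both sums were thus higher in the rescue than in the knockdown. The sum for other cell types cannot be told apart from the NT-high class, and the part of other cells in the results was not tested.

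Hspa8 encodes Hsc70, the constitutive chaperone of the cytosol, which also uncoats clathrin and delivers proteins to the lysosome. Its scaled CPM was 5632 and 5679 in the knockdown and 3300 and 3145 in the rescue, with NT2 at 5555 and 5627 and Cysteamine at 6839 and 6591. The rescue libraries were the lowest of the 8, and the knockdown lay close to NT2. Hspa8 fell by 0.81 ± 0.094 (SE) on the log2 scale (adjusted p of 3.35e-04 by edgeR). Hsp90aa1, the stress-inducible Hsp90 gene, stood at 3564 and 3823 in the knockdown and at 2055 and 2118 in the rescue, a fall of 0.82 ± 0.11 (SE; adjusted p of 9.79e-04 by edgeR), and here it was the rescue that lay close to NT2, at 1976 and 2020. Hsp90ab1, the constitutive Hsp90 gene, stood at 10781 and 11679 against 8231 and 8179 and fell by 0.45 ± 0.083 (SE; adjusted p of 0.0089 by edgeR). Hspa5, the Hsp70 of the endoplasmic reticulum whose promoter window is printed above, stood at 4256 and 4095 against 2761 and 2607, with NT2 at 3590 and 3628 and Cysteamine at 1631 and 1521. It fell by 0.64 ± 0.11 (SE; adjusted p of 0.00497 by edgeR). Hspa8 and Hsp90aa1 were called in 20 of 21 alternatives, Hspa5 in 18 and Hsp90ab1 in 17. Hspa5 and Hsp90ab1 were not called with all 14 libraries (adjusted p of 0.417 and 0.687 by edgeR), with the 4 compared libraries alone (0.0533 and 0.102) or by DESeq2, and Hsp90ab1 not without CTNS-KD replicate 2.

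Of 9 listed cytosolic and mitochondrial chaperones 3 fell (33.3%, beside 1.22% of all transcripts), 8 were below 0, and the median was -0.36. Of 10 listed chaperones of the endoplasmic reticulum 1 fell (10%, beside 1.22%), 8 were below 0, and the median was -0.18. Hsp90b1 and Pdia3, which also act there, had log2 fold changes of -0.34 and -0.60 with adjusted p values of 0.154 and 0.121 by edgeR. Pdia3 was called in 1 alternative. Of 5 listed subunits of the chaperonin CCT, which folds actin and tubulin, none was called by edgeR, DESeq2 or limma (1 was lower at an unadjusted p under 0.05), 4 were below 0, and the median was -0.30. Over the 3 chaperone lists together, also a union formed after their values were seen, 4 of 24 fell (16.7%, beside 1.22% of all transcripts) and 20 were below 0. Below 0 were also 701 of all 1399 transcripts and 621 of the 1058 outside the NT-high class, which holds no member of these lists. The count of 20 was 16 under relative log expression scaling, by DESeq2, without the NT-high class and without the 3 dominant transcripts. It was 23 with library totals alone. With all 14 libraries none of the 24 was called by edgeR (4 were lower at an unadjusted p under 0.05), and the adjusted p was 0.441 for Hspa8 and 0.232 for Hsp90aa1. With the 4 compared libraries alone 2 were called. Hspa8, Hsp90ab1, Tubb5 and the ribosomal protein genes have near-identical pseudogene copies, so their counts are uncertain where reads were shared.

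Polr2a, the largest subunit of RNA polymerase II, stood at 1365 and 1311 scaled CPM in the knockdown and at 745 and 701 in the rescue, with NT2 at 1314 and 1230. It fell by 0.89 ± 0.14 (SE; adjusted p of 0.00411 by edgeR), and with all 14 libraries its adjusted p by edgeR was 0.0863. Nup155, a scaffold protein of the nuclear pore, stood at 412 and 433 against 193 and 196, a fall of 1.12 ± 0.28 (SE; adjusted p of 0.0383 by edgeR). For both genes the rescue libraries were the lowest of the 8. Nup155 was called in 10 of 21 alternatives, not with all 14 libraries (adjusted p of 0.228 by edgeR), with the 4 compared libraries alone (0.0978) or without any 1 of the 8 libraries. The initiation factor genes Eif4b and Eif3d fell by 0.70 ± 0.15 (SE; adjusted p of 0.0179 by edgeR) and 0.80 ± 0.21 (SE; adjusted p of 0.047 by edgeR); they were the 2 calls among 18 listed elongation and initiation factors (11.1%, beside 1.22% of all transcripts), 15 of which were below 0, with a median of -0.19. Rpl5 (fall of 0.47, adjusted p of 0.0382 by edgeR) was the 1 call among 51 listed ribosomal protein genes, a share near the 1.22% of all transcripts called lower; 37 of the 51 were below 0, with a median of -0.16. Lrrc59, a ribosome-binding membrane protein gene, fell by 0.78 ± 0.19 (SE; adjusted p of 0.0361 by edgeR). Of 31 listed RNA-binding and splicing genes none was called by edgeR, DESeq2 or limma, 4 were lower at an unadjusted p under 0.05, and 24 were below 0, with a median of -0.088. Smarca5, a chromatin remodelling ATPase gene of the NT-high class, rose by 0.51 and was the 1 call among 25 listed chromatin regulators. That is 4%, near the 2.93% of all transcripts called higher. Below 0 were 19 of the 25, beside 701 of all 1399 transcripts. Of the alternatives, 15 of 21 called Eif4b, 12 Lrrc59, 9 Rpl5 and 8 Eif3d, and 8 of 20 called Smarca5. Leaving out any 1 of the 8 libraries ended the calls of Eif3d, Rpl5 and Smarca5, any 1 but those of NT2 that of Lrrc59, and CTNS-KD replicate 1, CTNS-KD replicate 2 or CTNS-KD-rescue replicate 1 that of Eif4b; none of the 5 was called with all 14 libraries or with the 4 alone.

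Ubr4, a ubiquitin ligase of the N-degron pathway, stood at 2470 and 2672 scaled CPM in the knockdown and at 1721 and 1597 in the rescue, above the 1450 and 1464 of NT2. It fell by 0.63 ± 0.12 (SE; adjusted p of 0.0113 by edgeR). Of 21 alternatives 15 called it, not the fit of all 14 libraries (adjusted p of 0.448 by edgeR), that of the 4 alone (0.0614), DESeq2, or those without CTNS-KD replicate 2 or 1 or the other rescue library. Ubr4 and Rnf213 were the 2 calls, in opposite directions, among 18 listed proteasome and ubiquitin genes. Each was 5.56% of the list, beside 1.22% of all transcripts called lower and 2.93% called higher. Below 0 were 15 of the 18, beside 701 of all 1399 transcripts, and the median was -0.31. Psmd11, a subunit of the proteasome lid, was at -1.02 (adjusted p of 0.0987 by edgeR) and the polyubiquitin gene Ubb at -0.73 (adjusted p of 0.0711 by edgeR). Each was called in 3 alternatives.

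**Figure D4:**
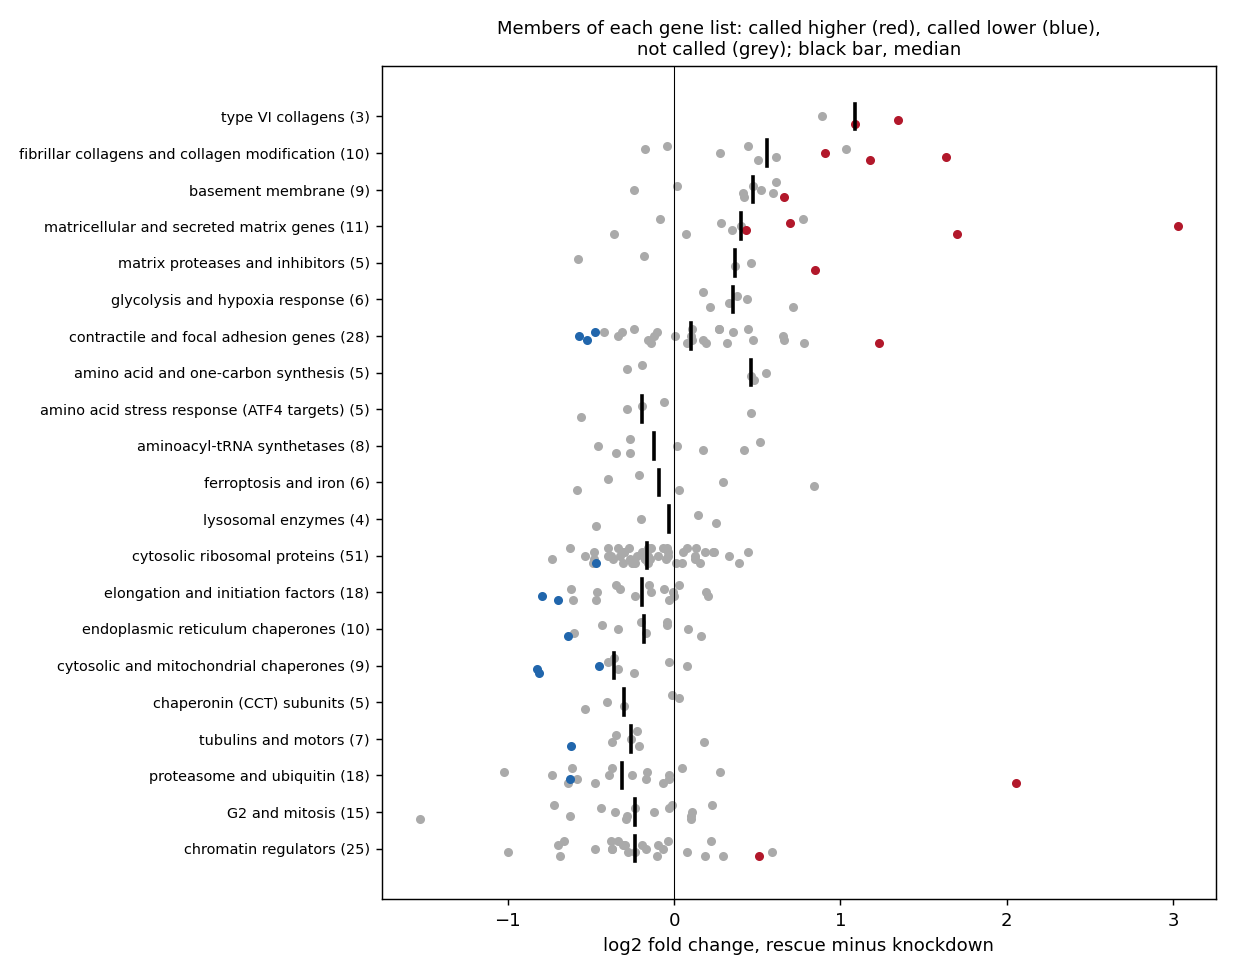
Log2 fold change of rescue over knockdown (x axis) for the listed members of 21 gene lists (y axis, number of listed members in parentheses); red points were called higher, blue lower and grey not called, and black bars are medians. The medians of the 5 matrix lists lie between 0.37 and 1.09, and those of the 3 chaperone lists between -0.36 and -0.18.

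Genes tied to the question of the series, which concerns lysosomal cystine, ferroptosis and the response to cysteine, had few listed members, and no member of the ferroptosis, redox, amino acid, synthetase and lysosomal lists was called in the main result or in an alternative. Ferroptosis is an iron-dependent cell death through oxidised membrane lipids, which the glutathione enzyme Gpx4 repairs. Of 25 ferroptosis and iron genes 6 were listed, 3 above and 3 below 0 and 1 of them lower at an unadjusted p under 0.05, with a median of -0.091. Gpx4 was at -0.40 (adjusted p of 0.523) and rested on 48 counts in the knockdown and 28 in the rescue. Fth1, the heavy chain of the iron store ferritin, stood at 1717 and 1584 scaled CPM against 2260 and 1776, with a log2 fold change of 0.30 and an adjusted p of 0.333. Sod1 was at -0.61 (adjusted p of 0.219) and Abcc1, a glutathione conjugate exporter, at 0.50 (adjusted p of 0.335).

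Atf4, the transcription factor of amino acid shortage, stood at 703 and 581 scaled CPM in the knockdown and at 424 and 456 in the rescue, with NT2 at 889 and 866. The libraries did not overlap, and the log2 fold change of -0.56 ± 0.19 (SE) had an adjusted p of 0.124, so it was not called. Both rescue libraries lay below both knockdown libraries for 334 of all 1399 transcripts. Of the 5 listed members of the Atf4 list, Atf4 included, 4 were below 0, with a median of -0.19. Of 5 listed amino acid transporters 2 were above 0, with a median of -0.062, and of 5 listed genes of amino acid and one-carbon synthesis 3 were above 0, with a median of 0.46. Slc6a15, an amino acid transporter gene of the NT-high class that is not on the transporter list, was called. Its rise was 0.58 ± 0.15 (SE), with an adjusted p of 0.0383 by edgeR, and 8 alternatives called it. The 8 listed aminoacyl-tRNA synthetases had 4 above 0 and a median of -0.12. Sqstm1, the autophagy receptor p62, stood at 2028 and 2128 against 1451 and 1499, far above the 527 and 399 of NT2; its log2 fold change of -0.49 ± 0.14 (SE) had an adjusted p of 0.0606. It was called in 4 of 21 alternatives, among them upper-quartile scaling and library totals alone. Of 4 listed lysosomal enzymes 2 were above 0, with a median of -0.028; Gaa, the lysosomal glucosidase, was at -0.47 (adjusted p of 0.223), and Lamp1, a lysosomal membrane protein gene, at -0.22 (adjusted p of 0.41). At counts of this size a change that missed the threshold is not shown to be absent.

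Levels relative to NT2 are given without a test, since all share those libraries, and the labels do not say that NT2 is the control of the knockdown and the rescue. For Col1a1 the knockdown was at -1.57 and the rescue at -0.39 relative to NT2 on the log2 scale, for Col6a1 at -1.28 and -0.19, for Col1a2 at -2.93 and -1.29, and for Thbs1 at -2.52 and -0.82. Fn1 was at -1.71 and -1.28. In these 5 genes the rescue lay between the knockdown and NT2. In other matrix genes it lay above NT2: Col4a2 was at -0.23 and 0.42, Postn at -1.58 and 1.45 and Ccdc80 at -1.45 and 0.20, and Col6a3 was above NT2 in both groups, at 0.57 and 1.46. For Acta2 the values were -1.01 and 0.23, so the rescue stood slightly above NT2. Hsp90aa1 stood at 0.88 in the knockdown and 0.062 in the rescue. Hspa8 stood at 0.016 and -0.79, Polr2a at 0.073 and -0.81, Hspa5 at 0.21 and -0.43, and Tubb5 at -0.49 and -1.11. In these 4 genes the rescue lay farther from NT2 than the knockdown did.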

How the data were processed

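Polyadenylated RNA of MEFs was sequenced in 14 libraries. Per the labels' protocols, RNA fragments of 50 to 100 nucleotides were taken from a gel, tailed, ligated to an adapter and amplified. Software named in the submitters' processing notes is STAR 2.7.10a, Bowtie 1.2.3, cutadapt 2.8 and bcl2fastq 2.20.0.422, with the assembly GRCm39; how transcripts were counted is not given in the sources used here. The deposited tables hold whole-number counts per Ensembl transcript, although they are named as CPM. Totals are over the listed transcripts and are not sequencing depths.

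Symbols came from GENCODE mouse release M21. edgeR 4.0.16 in R 4.3.3 fitted 8 libraries as 4 group means with 4 residual degrees of freedom and TMM scaling. Two-sided p-values were adjusted by the Benjamini-Hochberg method over all 1399 transcripts. The SE is the log2 fold change over the square root of F. The script was tested on simulated data. Alternatives were limma 3.58.1, DESeq2 1.42.0 and other scalings, filters and sets of libraries. The comparison, the lists and the tests were chosen with earlier results of these data known. Named were the 12 largest changes per direction among calls with at least 10 scaled CPM in a group and libraries apart, up to 4 members of each list by p, the 3 dominant transcripts and the listed markers of other cell types. Some transcripts that this rule names are not reported here. Lists were described by counts and medians, without a test.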

Additional observations from a re-analysis of the deposited data

How the results depend on the processing

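Counts of calls are given as all, higher and lower, beside 58, 41 and 17 in the main result. edgeR with all 14 libraries gave 9, 9 and 0 (70 lower at an unadjusted p under 0.05), and with the 4 compared libraries alone 10, 7 and 3; Rnf213, Col1a2, Acta2 and Col6a1 were called by both. DESeq2 gave 23, 20 and 3 among the 341 transcripts that kept an adjusted p after its own filter, and limma 82, 48 and 34. Relative log expression scaling gave 83, 69 and 14, library totals alone 73, 26 and 47, and scaling without the 3 dominant transcripts 83, 68 and 15. Leaving out each library of the fit in turn gave 21 to 45 calls, 16 to 36 higher and 5 to 11 lower. With the replicate number as a block (replicate block) edgeR gave 152, 113 and 39, and, on the 4 compared libraries alone, an alternative added after seeing the data, 143, 102 and 41; these 2 fits called 17 and 15 of the 38 matrix transcripts higher, against 11, and both called Sqstm1 lower. The deviations of same-numbered knockdown and rescue libraries correlated at 0.249, but 2 libraries a group do not show that the numbers pair them. For all of these the cause was not tested. The other alternatives (upper-quartile scaling, a mean count of at least 20, without the NT-high class, per gene symbol) gave 54 to 72 calls. Of 129 named transcripts that were called or lay at least 1 SE from 0, 3 changed sign, and of 15 others that lay closer to 0, 14 did. The 3 were not called by edgeR in the main result (adjusted p of 0.545 for Phgdh, 0.423 for Eno1 and 0.356 for Ptk7): Phgdh ran from -0.55 without CTNS-KD replicate 1 to 0.0077 without CTNS-KD replicate 2, Eno1 from -0.011 without CTNS-KD-rescue replicate 2 to 0.79 without CTNS-KD-rescue replicate 1, and Ptk7 from -0.16 without CTNS-KD-rescue replicate 1 to 1.12 without CTNS-KD-rescue replicate 2. Median counts of 22 to 35 per transcript limit what small changes these libraries can show.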

Other observations

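Genes of cell division and energy metabolism had no or few calls. Of 15 listed genes of G2 and mitosis none was called by edgeR or DESeq2 and limma called 1 lower; 3 were lower at an unadjusted p under 0.05, 11 were below 0 and the median log2 fold change was -0.23. Aurkb, the kinase of the chromosomal passenger complex, stood at 181 and 198 scaled CPM in the knockdown and at 51.4 and 81.5 in the rescue, with a log2 fold change of -1.53 ± 0.43 (SE) and an adjusted p of 0.0606, and its partner Incenp was at -0.63 (adjusted p of 0.13). In the G1/S list Ccnd1, which encodes cyclin D1, stood at 191 and 161 against 347 and 326 (0.93, adjusted p of 0.124) and the maintenance methyltransferase gene Dnmt1 at 944 and 841 against 655 and 456 (-0.66, adjusted p of 0.0887). The libraries of each of these 4 genes did not overlap between the groups, and none passed the threshold in the main result. Such separation was common: of all 1399 transcripts, both rescue libraries lay above both knockdown libraries for 332 and below them for 334. All 6 listed glycolysis and hypoxia genes were above 0, with a median of 0.35 and no call by edgeR or limma (1 higher at an unadjusted p under 0.05). Vegfa, the angiogenic growth factor gene, was at 0.72 (adjusted p of 0.129 by edgeR). Of 7 listed mitochondrially encoded genes 6 were below 0, and mt-Nd5 was the exception at 0.53 (adjusted p of 0.0583 by edgeR). It was not called in the main result but was called in 7 alternatives, limma among them.

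Some calls outside the rule for named genes were chosen after their values were seen. Aebp1, a collagen-binding secreted protein gene, stood at 773 and 841 scaled CPM in the knockdown and at 1374 and 1450 in the rescue, a rise of 0.81 ± 0.14 (SE; adjusted p of 0.00683 by edgeR). Calu, which encodes the calcium-binding protein calumenin of the secretory pathway, rose by 0.66 ± 0.16 (SE; adjusted p of 0.0383 by edgeR). Mical2, an actin-oxidising enzyme gene, rose by 0.81 ± 0.18 (SE; adjusted p of 0.0207 by edgeR), and Plxna4, a semaphorin receptor gene, by 0.96 ± 0.24 (SE; adjusted p of 0.039 by edgeR). Srp68, a subunit of the signal recognition particle, Sh2d2a, an adaptor of T cells, and Dmrt2, a transcription factor of the somites, rose by 0.93, 0.86 and 0.92; these 3 belong to the NT-high class, and their NT2 means of 1302, 277 and 350.2 lay below both the knockdown and the rescue. Of 21 alternatives 18 called Aebp1, 13 Mical2, 12 Plxna4 and 9 Calu, and of 20 alternatives 19 called Sh2d2a, 18 Dmrt2 and 14 Srp68. None of the 7 was called by edgeR with all 14 libraries (adjusted p of 0.121 to 0.448). Leaving out CTNS-KD replicate 1 ended the calls of Aebp1, Mical2, Plxna4, Calu and Srp68, CTNS-KD replicate 2 or CTNS-KD-rescue replicate 2 those of Mical2, Plxna4, Calu and Srp68, CTNS-KD-rescue replicate 1 those of Mical2 and Calu, 1 or the other Cysteamine library those of Plxna4, Calu and Srp68, and 1 or the other NT2 library that of Calu.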
